A study of Danio rerio with 8 samples.

Results

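The transcripts described here encode the D and E cyclins, the pocket proteins and the activator E2F factors of the G1 to S transition, measured in kdrl-positive cells of zebrafish embryos. The 10 symbols ccnd1, ccnd2a, ccnd3, ccne1, ccne2, rb1, rbl1, rbl2, e2f1 and e2f2 were matched without regard to case, and a symbol without its paralogue letter also counted. They matched 11 of the 31901 genes in the count table, because 2 identifiers carry the symbol CCND2 and the table of names does not say which is ccnd2a. The members were chosen by their role and partly by the measured RBL2 counts, which were known to be much higher in the mutants, so their differences between the groups are given as a description of these libraries, with no p-values. Where a member is called higher, lower or not passing, this only says on which side of the threshold used for all genes it lay, and it is no test of that member. For all other genes, adjusted p-values are from edgeR's quasi-likelihood test with Benjamini-Hochberg adjustment over all genes tested, and those under 0.05 counted as passing.

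Cyclin D with its kinases CDK4 and CDK6, and then cyclin E with CDK2, phosphorylate the pocket proteins and so free E2F factors to switch on genes of DNA synthesis. In mammalian cells the pocket proteins p107 and p130, the products of RBL1 and RBL2, join repressor E2Fs, and with the MuvB proteins they form the DREAM complex, which holds cell cycle genes off in resting cells. MuvB can exchange the pocket protein for B-Myb and FoxM1 and then activates genes of G2 and mitosis. In mouse and human endothelium, arrest in G1 has been tied to the acquisition of arterial identity.

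The study has 4 libraries from sf3b1 mutants (mutant 1 to 4) and 4 from siblings (sibling 1 to 4), all of kdrl-positive endothelial cells at 28 hours post fertilization. sf3b1 encodes a subunit of the U2 snRNP, which recognises the branch point of introns. The labels name no mutant allele, sibling genotype, number of embryos or clutch, so the spread between libraries may be partly technical. Levels are counts scaled to library size with TMM (CPM), and log2 fold changes are mutant over sibling ± SE.

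The labels were first checked against the mutated gene and cell markers. SF3B1 stood at 151, 149.6, 188 and 162 CPM in mutant 1 to 4 and at 313, 212, 311 and 354 CPM in sibling 1 to 4, so no mutant library reached the lowest sibling (log2 fold change -0.87 ± 0.166, adjusted p = 0.00168). Library totals ran from 10035886 to 13277963 counts. The 11 endothelial markers matched, among them kdrl, cdh5 and TIE1, were counted in the libraries of both groups and summed to 2452 to 4917 CPM in mutants and 2263 to 3959 CPM in siblings. Of the 11, 2 were higher and 0 lower. Transcripts of other cell types were present too, and the erythroid, leukocyte and neural sums were lower in every mutant library. The 7 erythroid identifiers summed to 3791 to 4997 CPM in mutants and 7838 to 14123 CPM in siblings, and 5 of 6 tested fell. The sum was mostly hbae3 and hbbe3, which averaged 5076 and 4731 CPM in siblings. The tested erythroid gene that did not fall, gata1a, averaged 51.7 ± 17.3 CPM in mutants and 31.0 ± 9.46 CPM in siblings. It pointed upward but did not pass (0.74 ± 0.286, adjusted p = 0.0831). The 6 leukocyte markers summed to 131 to 321 CPM against 717 to 973 CPM, and 6 of 6 fell. The 8 neural markers summed to 235 to 293 CPM against 628 to 1136 CPM, and 3 of 8 fell. In siblings the neural sum was mostly ELAVL3, which averaged 577 CPM there and 89.5 CPM in mutants. Of the 8, 7 had a negative log2 fold change, while SOX3 pointed upward but did not pass (0.65 ± 0.271, adjusted p = 0.105). No marker on these lists was at 0 in all libraries. Muscle markers overlapped between the groups (243 to 643 and 249 to 395 CPM), and 1 of 9 was higher. Over all 18289 genes tested, 9.92% were higher and 11.4% lower. In bulk RNA of sorted cells, fewer cells of a type and less RNA per cell cannot be told apart, and the part of these marker differences in the results below was not tested.

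All 11 members passed the filter on low counts. Of them, 3 were higher, 1 was lower and 7 did not pass, where 21.3% of all 18289 tested genes passed in either direction, 9.92% higher and 11.4% lower. In 4 of the 11 the values of the groups did not overlap, against 26.7% of all tested genes. In 3 all mutant libraries were higher (12.6% of all tested genes) and in 1 all were lower (14.1%). The contrast was used in choosing the members, so nothing is read from these shares. The median log2 fold change was 0.26 over the members and -0.00040 over all genes tested.

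**Figure D1:**
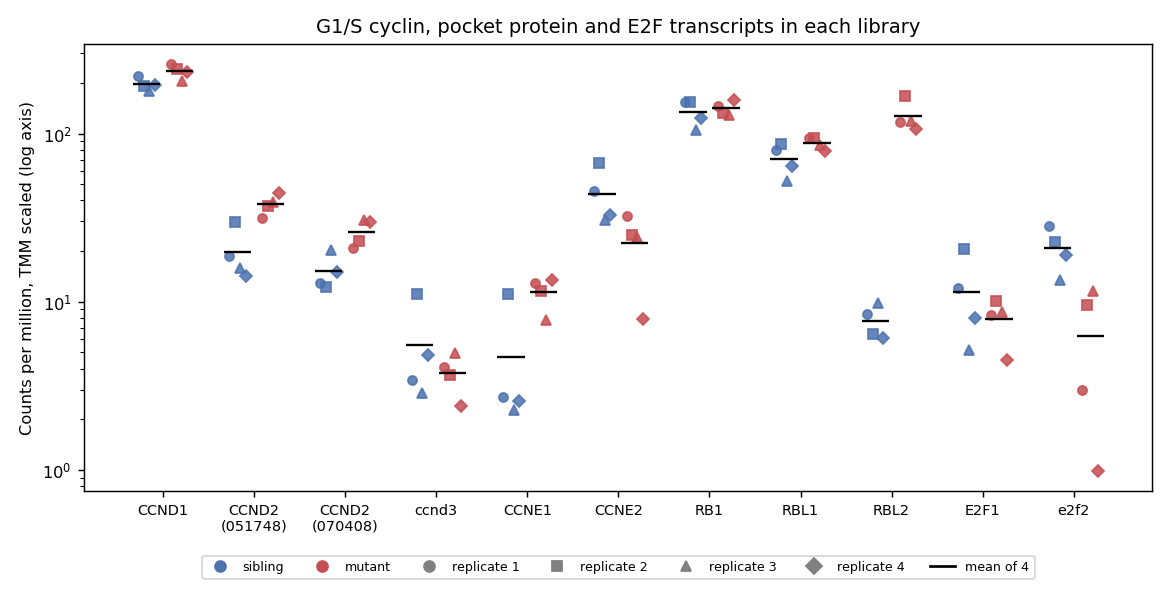
Level in CPM (TMM scaled, log axis) of the 11 member genes in each of 4 sibling (blue) and 4 mutant (red) libraries. Marker shapes give the replicate number, black lines are means of 4 libraries, and CCND2 is shown once for each identifier with the end of that identifier. RBL2 lies at 106 to 167 CPM in mutants and 6.11 to 9.79 CPM in siblings, and e2f2 is the only member with all mutant libraries under all sibling libraries.

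Among the pocket proteins, RBL2 differed most between the groups. RBL2 (ENSDARG00000045636), which encodes p130, the pocket protein typical of resting cells, stood at 118, 167, 119 and 106 CPM in mutant 1 to 4. In sibling 1 to 4 it stood at 8.41, 6.39, 9.79 and 6.11 CPM. Every mutant library was far above every sibling library, and the means were 127 ± 27.2 and 7.67 ± 1.74 CPM (SD, n = 4 each), a ratio of 16.6. The log2 fold change was 4.05 ± 0.229, which ranked number 51 from the top of 18289 genes. The raw counts were 1239 to 2093 in mutants and 67 to 120 in siblings, so neither group was near the floor of counting. Across all alternatives of scaling, filter, test and left-out libraries its log2 fold change stayed between 3.89 and 4.19. The RBL2 counts were partly used in choosing the members, so this range describes the fits and is no support for the difference.

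RB1 (ENSDARG00000006782), which encodes the retinoblastoma protein itself, stood at 145, 133, 129 and 159 CPM in mutants and 154, 155, 105 and 124 CPM in siblings. The groups overlapped, and the log2 fold change was 0.07 ± 0.159, whose sign turned without sibling replicate 3 (-0.031). RBL1 (ENSDARG00000008141), which encodes p107, stood at 94.7, 93.6, 85.3 and 78.7 CPM in mutants and 80.2, 86.8, 52.4 and 63.7 CPM in siblings. Its groups overlapped too (0.32 ± 0.181), and it did not pass.

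These values shifted the make-up of the pocket protein transcripts. Counts of RBL2 were 32.9%, 42.5%, 35.7% and 30.8% of all pocket protein counts in mutant 1 to 4, and 3.46%, 2.57%, 5.84% and 3.14% in sibling 1 to 4. The shares are of counts and not per transcript length, so they compare libraries and not the abundance of the 3 genes. With RBL2 included, the pocket protein genes summed to 357 ± 26.4 CPM per mutant library and 213 ± 38.9 CPM per sibling library. The lowest mutant library held 333 CPM and the highest sibling library 248 CPM. RBL2 alone averaged 127 CPM per mutant library and 7.67 CPM per sibling library. The higher sum thus mostly restates RBL2, whose counts were partly used in choosing the members. RB1 and RBL1 each overlapped between the groups, so the sum is no separate result for the family.

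**Figure D2:**
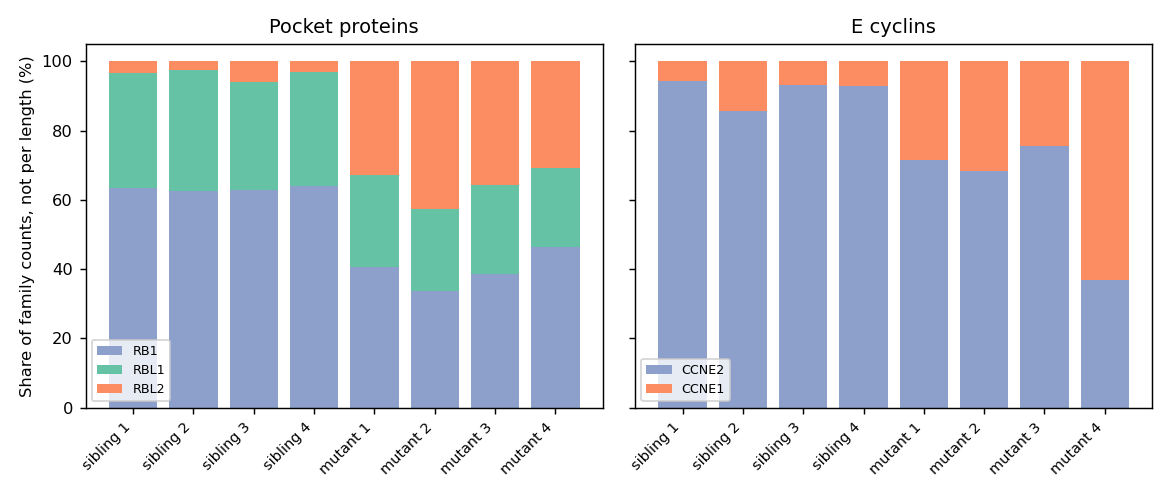
Share of counts (%, not per length) taken by each gene within the pocket proteins (left) and the E cyclins (right) in each library, siblings first. Each bar is 1 library and adds to the whole family. The RBL2 share is 30.8% to 42.5% in mutants and 2.57% to 5.84% in siblings, and the CCNE1 share is 24.3% to 63.1% in mutants and 5.63% to 14.3% in siblings.

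The D cyclins link growth signals to the cell cycle. CCND1 (ENSDARG00000101637) stood at 258, 242, 206 and 231 CPM in mutants and 220.2, 191, 178 and 194 CPM in siblings. Only the lowest mutant and the highest sibling library crossed, and with a log2 fold change of 0.26 ± 0.136 it did not pass. Both CCND2 identifiers rose. The first (ENSDARG00000051748) stood at 31.5, 36.9, 39.1 and 44.3 CPM in mutants and 18.7, 29.9, 15.9 and 14.2 CPM in siblings, a log2 fold change of 0.95 ± 0.256. The second (ENSDARG00000070408) stood at 20.8, 22.9, 30.7 and 29.6 CPM in mutants and 12.9, 12.3, 20.2 and 15.1 CPM in siblings, a log2 fold change of 0.78 ± 0.257. In both, all mutant libraries lay above all sibling libraries, but the gap was narrow. The first did not pass without sibling replicate 4 (0.82). The second did not pass without mutant replicates 2, 3 or 4 or sibling replicates 1, 2 or 4, nor with library totals only or no filter (0.61 to 0.95 over all alternatives). The cyclin gene ccnd3 (ENSDARG00000027391) was scarce, at 4.06, 3.68, 4.99 and 2.38 CPM in mutants and 3.41, 11.1, 2.85 and 4.82 CPM in siblings. Its groups overlapped widely (log2 fold change -0.55 ± 0.567), and without sibling replicate 2 the sign turned (0.016).

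The E cyclin genes, whose products activate CDK2 late in G1, pointed in opposite directions, and neither passed. CCNE1 (ENSDARG00000098622) stood at 12.9, 11.5, 7.77 and 13.5 CPM in mutants and 2.70, 11.2, 2.28 and 2.57 CPM in siblings. Sibling replicate 2 alone reached the mutant range. The log2 fold change was 1.29 ± 0.519, and without sibling replicate 2 it was 2.16 and passed. CCNE2 (ENSDARG00000098529) stood at 32.4, 24.9, 24.2 and 7.89 CPM in mutants and 45.4, 67.0, 30.7 and 32.8 CPM in siblings. Its groups overlapped in mutant replicate 1 and sibling replicate 3, and the log2 fold change was -0.97 ± 0.367. Without both mutant replicate 4 and sibling replicate 2, the libraries farthest apart in CCNE2, it was -0.43, and with DESeq2 it was -0.97 and passed. Within the E cyclins, CCNE1 counts made up 28.4%, 31.6%, 24.3% and 63.1% in mutant 1 to 4. In sibling 1 to 4 they made up 5.63%, 14.3%, 6.91% and 7.27%. The share combines the values of both genes, neither of which passed. Its highest value, in mutant 4, comes from a library with only 96 counts of CCNE2.

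The activator E2F genes, which drive entry into S phase, spread widely between libraries. e2f2 (ENSDARG00000079233) stood at 2.97, 9.51, 11.6 and 0.986 CPM in mutant 1 to 4 and 28.3, 22.7, 13.4 and 19.0 CPM in sibling 1 to 4. The mutant libraries all lay under the sibling libraries, but mutant 3 and sibling 3 nearly met, and mutant 4 held only 12 counts. The log2 fold change was -1.74 ± 0.570. It passed only narrowly and was lost without mutant replicates 1 or 2, without any single sibling replicate, without both mutant replicate 4 and sibling replicate 2, with upper-quartile scaling and with no filter (-2.21 to -1.35 over all alternatives). The erythroid, leukocyte and neural marker sums were lower in the same libraries, as given above, and their part in the e2f2 values was not tested. E2F1 (ENSDARG00000103868) stood at 8.28, 10.2, 8.73 and 4.52 CPM in mutants and 12.0, 20.5, 5.14 and 7.95 CPM in siblings. The groups overlapped (-0.52 ± 0.435), and the sign turned without both mutant replicate 4 and sibling replicate 2 (0.10).

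**Figure D3:**
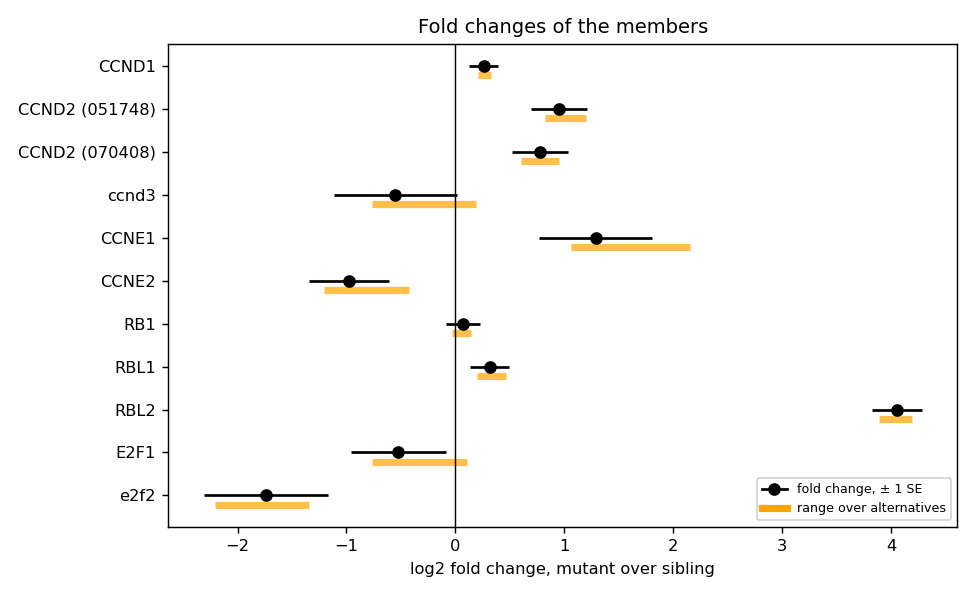
Log2 fold change of each member, mutant over sibling (points), with ± 1 SE (thin lines) and the range over 16 alternative settings (orange bars). RBL2 lies at 4.05, while the remaining members lie between -1.74 and 1.29.

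Of all libraries, mutant replicate 4 and sibling replicate 2 lay farthest from their groups on the second principal component (23.7% of the variance of the 500 most variable genes). Mutant replicate 4 had the lowest mutant value of ccnd3, CCNE2, RBL1, RBL2, E2F1 and e2f2. Sibling replicate 2 had the highest sibling value of ccnd3, CCNE1, CCNE2, RB1, RBL1, E2F1 and the first CCND2 identifier. Without both, 3 members were higher and 0 lower, but these were not the same 3. CCNE1 passed in that fit, and the second CCND2 identifier did not.

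Further genes of the pathway were examined in 10 lists, from kinases and inhibitors to E2F, DREAM and p53 targets, which together hold 125 identifiers, 121 of them tested. Of the 121, 20 were higher, 29 lower and 72 did not pass (40.5% called, against 21.3% of all genes tested). The lists were chosen with earlier results of these data known, so nothing is read from these shares, here or for single lists below. Of 7 kinase and activator genes, 2 rose and 5 did not pass. CCNH (ENSDARG00000007657), the cyclin of the kinase that activates other CDKs, stood at 49.6, 46.8, 60.3 and 63.7 CPM in mutants and 13.3, 7.92, 5.71 and 10.2 CPM in siblings, a difference on the log2 scale of 2.57 ± 0.269 (adjusted p = 1.65e-05). Its kinase partner CDK7 (0.88 ± 0.356, adjusted p = 0.0957) and the assembly factor MNAT1 (0.42 ± 0.492, adjusted p = 0.625) did not pass. CDK7 was higher in every mutant library (7.10 to 16.7 CPM) than in any sibling library (5.91 to 6.53 CPM), and it passed without mutant replicate 3. The cyclin D kinase gene CDK6 rose from 49.6 ± 10.5 to 103 ± 26.1 CPM (1.05 ± 0.210, adjusted p = 0.00239). The other cyclin D kinase gene, CDK4, averaged 20.7 ± 5.62 CPM in the mutant and 33.2 ± 8.73 CPM in the sibling libraries and did not pass (-0.68 ± 0.272, adjusted p = 0.0929), though it did without sibling replicate 3 (-0.84). CDK2, the cyclin E kinase, did not pass (-0.39 ± 0.340, adjusted p = 0.482).

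Of 8 CDK inhibitor identifiers, 6 were tested, of which 1 rose, 2 fell and 3 did not pass (50% called, against 21.3% of all genes tested). The gene that rose was cdkn1a, also a p53 target, at 59.1 to 102 CPM in mutants and 7.79 to 15.6 CPM in siblings (2.53 ± 0.257, adjusted p = 1.35e-05). CDKN1B (ENSDARG00000054271), which encodes an inhibitor of cyclin E with CDK2, fell from 49.5, 47.3, 47.1 and 42.3 CPM in siblings to 26.9, 19.9, 25.6 and 18.7 CPM in mutants (-1.03 ± 0.202, adjusted p = 0.00201). The other CDKN1B identifier (ENSDARG00000029018) stood at 27.9 ± 6.86 and 29.4 ± 5.22 CPM (-0.077 ± 0.237, adjusted p = 0.867), and its sign turned on leaving out libraries. The related cdkn1ca fell from 58.4 ± 31.1 to 16.7 ± 5.78 CPM (-1.80 ± 0.358, adjusted p = 0.00251). CDKN2C (-0.19 ± 0.831, adjusted p = 0.909) and cdkn1cb (0.19 ± 0.853, adjusted p = 0.911) were scarce and did not pass, and cdkn2a/b and CDKN2D did not reach the filter on low counts.

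Of 9 other E2F and DP genes, 0 rose and 1 fell (11.1% called, against 21.3% of all genes tested). E2F8, an atypical E2F that represses E2F targets, fell from 143, 143, 110.2 and 103 CPM in siblings to 34.9, 53.4, 32.9 and 32.9 CPM in mutants (-1.69 ± 0.202, adjusted p = 4.60e-05). E2F7, the other atypical member, did not pass (-0.10 ± 0.190, adjusted p = 0.768). E2F4, the usual partner of p130 in mammals, averaged 84.2 ± 6.51 CPM in the mutant and 82.7 ± 8.52 CPM in the sibling libraries (0.026 ± 0.153, adjusted p = 0.934, nominal 95% interval -0.35 to 0.40). The TFDP1 identifiers, which encode the dimer partner of E2Fs, pointed in opposite directions and did not pass (0.55 ± 0.189, adjusted p = 0.0512, and -0.62 ± 0.223, adjusted p = 0.0608). The first of them passed under 4 other scalings, filters or tests and without mutant replicate 1 or sibling replicate 4 (0.36 to 0.65 over all alternatives). The second passed without mutant replicate 3 or sibling replicate 3 (-0.77 to -0.51).

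Of the 8 genes for MuvB subunits, Myb proteins and FoxM1, which bind with or in place of the pocket proteins, 6 fell, 1 rose and 1 did not pass (87.5% called, against 21.3% of all genes tested). The median log2 fold change of the list was -0.99. LIN54, the DNA-binding subunit of MuvB, fell from 125, 159, 108 and 104 CPM in siblings to 62.9, 37.4, 43.1 and 62.1 CPM in mutants (-1.27 ± 0.208, adjusted p = 0.000545). LIN9, another MuvB subunit, stood at 18.3, 20.1, 19.0 and 19.0 CPM in siblings and 7.82, 5.52, 12.0 and 6.49 CPM in mutants (-1.27 ± 0.306, adjusted p = 0.00818). lin37, the subunit needed for repression by DREAM in mammals, fell from 33.5 ± 8.93 to 20.3 ± 1.46 CPM (-0.72 ± 0.236, adjusted p = 0.0424), a call that was lost under 11 of 16 alternatives (-0.86 to -0.51). Sibling replicate 3, at 22.8 CPM, lay close to the highest mutant library at 21.6 CPM. LIN52, which contacts the pocket protein, did not pass (0.31 ± 0.514, adjusted p = 0.743). The histone-binding subunit gene RBBP4, which also serves other chromatin complexes, was the member that rose, from 59.8 ± 18.5 to 111 ± 5.26 CPM (0.89 ± 0.205, adjusted p = 0.00593).

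The activating partners of MuvB fell as well. FOXM1 stood at 13.9, 14.9, 7.77 and 6.08 CPM in mutants and 33.0, 31.4, 41.3 and 25.5 CPM in siblings (-1.62 ± 0.310, adjusted p = 0.00176). MYBL2, which encodes B-Myb, fell from 130.2 ± 18.7 to 81.8 ± 10.1 CPM (-0.67 ± 0.161, adjusted p = 0.00803), and the related MYBL1 fell from 17.6 ± 6.24 to 3.23 ± 0.807 CPM (-2.45 ± 0.380, adjusted p = 0.000366). In all 6 genes that fell, the mutant libraries lay under all sibling libraries, as in 14.1% of all tested genes. These 6 were already called lower, so the lack of overlap is no further result. With single libraries left out, 5 to 6 of the list fell and 1 rose, and without both mutant replicate 4 and sibling replicate 2, 5 fell. The erythroid, leukocyte and neural marker sums moved in the same direction between the groups, and their part in these falls was not tested.

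**Figure D4:**
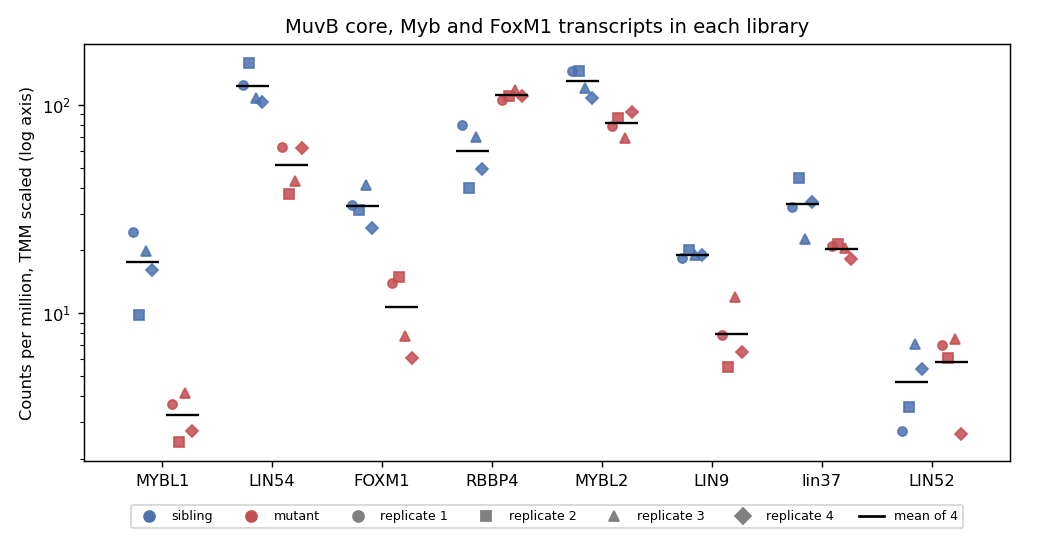
Level in CPM (TMM scaled, log axis) of the MuvB subunit, Myb and FOXM1 genes in each sibling (blue) and mutant (red) library, ordered by the size of their p. Marker shapes give the replicate number and black lines the means of 4 libraries. RBBP4 is higher and LIN52 overlaps, while in the other 6 genes all mutant libraries lie below all sibling libraries, as in 14.1% of all tested genes.

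Genes that E2F factors and DREAM are known to control in mammals were described next. Of 31 E2F targets of G1 and S phase tested, 6 rose, 7 fell and 18 did not pass (41.9% called, against 21.3% of all genes tested), with a median log2 fold change of 0.17. Of the origin-licensing genes, ORC1, MCM6 (ENSDARG00000057683) and MCM3 rose by 1.09 to 1.20 on the log2 scale, and MCM7 fell, as given below. MCM2, MCM4, MCM5, CDC6 and CDT1 did not pass (-0.34 to 0.33, adjusted p = 0.141 to 0.925). The other MCM6 identifier (ENSDARG00000033231) was scarce and did not pass (0.84 ± 0.735, adjusted p = 0.489). FEN1 (0.78 ± 0.177, adjusted p = 0.00545), UHRF1 (0.53 ± 0.155, adjusted p = 0.0236) and RFC4 (0.71 ± 0.222, adjusted p = 0.0340) rose less than ORC1, MCM6 (ENSDARG00000057683) and MCM3. UHRF1 and RFC4 each lost the call under 6 of 16 alternatives, among them the fits without mutant replicates 1 or 2 and sibling replicates 3 or 4. Among those that fell were TK1 (-2.06 ± 0.229, adjusted p = 2.76e-05), both RRM2 identifiers (-1.09 ± 0.263 and -0.78 ± 0.264, adjusted p = 0.00815 and 0.0483), RRM1 (-0.45 ± 0.150, adjusted p = 0.0437) and DUT (-1.54 ± 0.449, adjusted p = 0.0233), whose products make or guard DNA precursors. TYMS (0.17 ± 0.202, adjusted p = 0.634) and dhfr (0.10 ± 0.414, adjusted p = 0.900), which also serve precursor synthesis, did not pass. The others that fell were MCM7, a gene of licensing and of the helicase (-0.50 ± 0.136, adjusted p = 0.0157), and the helicase gene CDC45 (-0.72 ± 0.231, adjusted p = 0.0378). RRM2 (ENSDARG00000020711) lost the call under 11 of 16 alternatives, RRM1 under 10, CDC45 under 8, DUT under 3 and MCM7 under 1. TK1 and the other RRM2 identifier kept it under all 16. The number that fell was 3 without mutant replicate 1, 4 without mutant replicate 2, mutant replicate 3 or sibling replicate 2, 2 without sibling replicate 1, and 4 without both mutant replicate 4 and sibling replicate 2 and with upper-quartile scaling.

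Of 24 DREAM targets of G2 and mitosis, 1 rose, 10 fell and 13 did not pass (45.8% called, against 21.3% of all genes tested), with a median log2 fold change of -0.40. The kinase gene bub1 fell from 187 ± 22.6 to 81.8 ± 7.38 CPM (-1.19 ± 0.148, adjusted p = 6.21e-05). TOP2A fell from 487 ± 30.5 to 223 ± 35.5 CPM (-1.13 ± 0.142, adjusted p = 7.05e-05). For mki67 the fall was from 864 ± 117 to 437 ± 39.7 CPM (-0.98 ± 0.137, adjusted p = 0.000149). For cdc25b it was from 147 ± 22.7 to 59.8 ± 13.3 CPM (-1.30 ± 0.186, adjusted p = 0.000185). The kinetochore genes cenpe (-1.05 ± 0.174, adjusted p = 0.000586), TTK (-1.07 ± 0.236, adjusted p = 0.00472) and CENPF (-0.58 ± 0.129, adjusted p = 0.00499) fell too. CDK1 (-0.24 ± 0.244, adjusted p = 0.561), plk1 (-0.16 ± 0.132, adjusted p = 0.447) and CCNA2, the S phase cyclin (0.21 ± 0.191, adjusted p = 0.517), did not pass. The gene that rose was CCNB1, the mitotic cyclin gene (0.65 ± 0.210, adjusted p = 0.0393), a call that was lost on leaving out any of mutant replicates 1, 2 and 4 and sibling replicates 2, 3 and 4. With single libraries left out, 8 to 10 of the list fell.

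Of 13 p53 targets, 8 rose, 1 fell and 4 did not pass (69.2% called, against 21.3% of all genes tested), with a median log2 fold change of 0.96. The gene that fell was sesn2, a stress sensor (-3.37 ± 0.314, adjusted p = 6.1e-06). The largest rises on the log2 scale among the rest were of mdm2, which encodes the ligase that limits p53 (2.85 ± 0.151, adjusted p = 3.36e-08), and cdkn1a. CCNG1 rose from 251 ± 37.5 CPM in siblings to 1149 ± 49.9 CPM in mutants (adjusted p = 1.48e-07). PHLDA3, an inhibitor of Akt signalling, rose from 10.3 ± 3.19 to 48.1 ± 3.48 CPM (2.23 ± 0.252, adjusted p = 3.21e-05), and GADD45A (ENSDARG00000043581) from 5.15 ± 0.995 to 16.8 ± 3.87 CPM (1.70 ± 0.326, adjusted p = 0.00172). The other GADD45A identifier (ENSDARG00000104571) averaged 28.3 ± 9.73 CPM in mutants and 26.6 ± 6.48 CPM in siblings and did not pass (0.088 ± 0.289, adjusted p = 0.878). Of the 49 called genes over all lists, 34 kept their call under every alternative, 15 lost it under at least 1, and 0 turned sign.

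**Figure D5:**
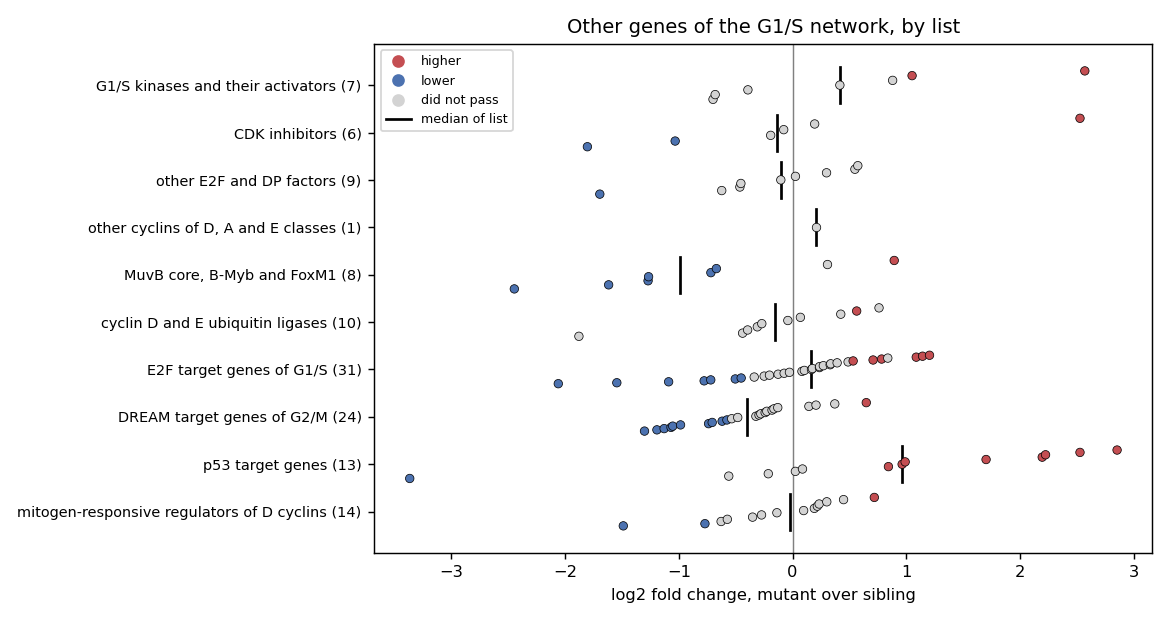
Log2 fold change, mutant over sibling, of each tested gene in the lists beside the members, with the number tested in parentheses and the median of each list as a black line. Red and blue points passed an adjusted p of 0.05, higher and lower in mutants, and grey points did not. The medians are -0.99 for the MuvB, Myb and FoxM1 list, -0.40 for DREAM targets, 0.17 for E2F targets and 0.96 for p53 targets.

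The genes whose pattern over the 8 libraries was most like that of RBL2 were sought among 10461 genes with a symbol and an average log2 CPM of at least 3. The 5 with the highest Pearson correlation of log2 CPM were GFM1, EIF4G2, SEH1L, AGO3 and USP10, with r from 0.993 to 0.997. In each of the 5 all mutant libraries lay above all sibling libraries, as in 12.6% of all tested genes. The r thus mostly follows the difference between the groups. As the 5 were picked for likeness to RBL2, neither the separation nor the high r is a separate result. Their log2 fold changes were smaller than that of RBL2. GFM1, a mitochondrial translation factor gene, differed by 1.73 ± 0.207, the nucleoporin gene SEH1L by 1.09 ± 0.162, and AGO3 by 0.95 ± 0.182. EIF4G2, a translation initiation factor gene, differed by 0.89 ± 0.127, and USP10, a ubiquitin protease gene, by 0.66 ± 0.126.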

How the data were processed

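RNA sequencing measured transcripts of 8 libraries. Per the labels' protocols, RNA was depleted of ribosomal RNA and libraries were made with a stranded kit. Per the submitters' processing notes, Trim Galore, STAR 2.4.2a, Picard, Cufflinks 2.2.1 and the build GRCz10 were used; for the counting tool, strand setting and annotation the sources used here give nothing. The deposited values are raw counts per Ensembl gene, which do not tell spliced from unspliced RNA, nor overlapping or antisense genes where strand was not used. Symbols came from a table of Ensembl names that matched 29178 of 31901 genes.

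The test was edgeR 4.0.16 in R 4.3.3, with TMM scaling, the robust quasi-likelihood fit and filterByExpr (minimum count 10, minimum total 15), which left 18289 genes; the SE is the log2 fold change divided by the square root of F. The script was also run on simulated counts with few or no changed genes, which does not test the calls in these data. The nominal interval of E2F4 uses the SE with the t distribution of the residual degrees of freedom and is not adjusted. DESeq2 1.42.0, other scalings and filters, left-out libraries and a replicate block were alternatives. Pairs of the same group had chi-square statistics of 13.99 to 47.24 per degree of freedom, so each library counted once. The members and lists were chosen with earlier results of these data known. Genes named were SF3B1, the members, the passing genes of each list with the smallest p, further passing genes and the 5 most like RBL2. Some genes that did not pass but had a small p in their list were named too. E2F7, E2F4, MNAT1, CDK2, LIN52, CDK1, plk1, CDKN2C, CDKN2D, cdkn1cb, cdkn2a/b, CTNNB1 and GSK3B were named after their values were seen. The same holds for MCM2, MCM4, MCM5, CDC6, CDT1, TYMS, dhfr and the MCM6, GADD45A and MYC identifiers that did not pass.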

Additional observations from a re-analysis of the deposited data

Results flagged for a closer look

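In a group of 4 libraries, 1 library can lie far from the other 3, and chance gives such a gap in about 1 of 20 groups. Among 144 groups examined, 6 had one. CCNE1 stood at 11.16 CPM in sibling replicate 2, where the other siblings held 2.28 to 2.70 CPM. cdkn1a stood at 7.792 CPM in sibling replicate 4 (others 14.9 to 15.6 CPM). E2F8 stood at 53.4 CPM in mutant replicate 2 (others 32.9 to 34.9 CPM). MCM6 (ENSDARG00000057683) stood at 201 CPM in sibling replicate 1 (others 106 to 122 CPM). MYC (ENSDARG00000045695) stood at 29.34 CPM in mutant replicate 3 (others 44.5 to 46.5 CPM). CDC20 stood at 52.38 CPM in sibling replicate 4 (others 71.4 to 73.5 CPM).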

How the results depend on the processing

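The counts over all genes and over the 121 further genes, and the call of SF3B1 (-1.02 to -0.78), kept within 1.5 times or on their side of the threshold under all 16 alternatives. Upper-quartile scaling moved the split over all genes from 1814 higher and 2088 lower to 2062 and 1806, and DESeq2 gave 2366 and 2423. The count of members that rose, 3, was 1 to 3 with single libraries left out (1 without sibling replicate 4), and that of members that fell, 1, was 0 to 1 (0 without mutant replicates 1 or 2 or any sibling replicate). The latter was 0 with upper-quartile scaling, with no filter and without both mutant replicate 4 and sibling replicate 2, and 2 with DESeq2. The labels do not say whether the replicate numbers pair the samples. Correlations of same-numbered deviations were -0.039 to 0.053, and those of differently numbered ones -0.067 to 0.071. With 4 libraries a group, such values cannot decide whether the samples are paired. With the numbers as a block 4 members rose, 2 fell and 3782 genes passed, against 3902. Under the block CCNE1 (1.62), CCNE2 (-1.06) and CDK4 (-0.69) passed, and lin37 (-0.68) and RRM2 (ENSDARG00000020711, -0.79) did not. Small differences turned sign: ccnd3 without sibling replicate 2 (0.016) and without both libraries (0.19), RB1 without sibling replicate 3 (-0.031), E2F1 without both (0.10), and CDKN1B (ENSDARG00000029018) without mutant replicate 4 (0.046), sibling replicate 3 (0.018) or both (0.019). With single libraries left out these ranged from -0.77 to 0.016 (ccnd3), -0.031 to 0.14 (RB1) and -0.24 to 0.046 (CDKN1B), and E2F1 reached -0.77. The cause was not tested. Depth limits ccnd3, e2f2, E2F1 and CCNE1, with 12 to 283 counts a library, and errors cover the spread between these libraries alone.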

Other observations

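Of 10 tested ubiquitin ligase genes that mark D and E cyclins for destruction, 1 rose and 9 did not pass (10% called, where 21.3% of all genes were). FBXW7, the cyclin E receptor of its ligase, averaged 165 ± 35.7 CPM in the mutant and 112 ± 17.5 CPM in the sibling libraries (0.56 ± 0.177 on the log2 scale, adjusted p = 0.0341). It did not pass without mutant replicates 1 or 2 or sibling replicates 1, 3 or 4 (0.42 to 0.67 over all alternatives). FBXO31, a receptor for cyclin D1, averaged 3.72 CPM in the mutant and 13.7 CPM in the sibling libraries (-1.88 ± 0.708, adjusted p = 0.0778). The call was gained without mutant replicate 4 and with DESeq2. RBX1, a RING subunit of cullin ligases, did not pass (0.76 ± 0.276, adjusted p = 0.0645), but did with upper-quartile scaling, no filter, DESeq2 and without mutant replicate 1 (0.41 to 0.92 over all alternatives).

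Of 14 regulators through which growth signals reach the D cyclin genes, 1 rose, 2 fell and 11 did not pass, close to the 21.3% called over all genes. The kinase gene gsk3bb, whose product turns over cyclin D1 and beta-catenin, fell from 23.3 ± 8.74 to 8.32 ± 1.56 CPM (-1.49 ± 0.311, adjusted p = 0.00323). The beta-catenin gene CTNNB1 (0.23 ± 0.141, adjusted p = 0.282) and the other GSK3B gene (0.19 ± 0.175, adjusted p = 0.510) did not pass. The calls of FOSB (0.72 ± 0.232) and MYC (ENSDARG00000045695, -0.77 ± 0.259) were lost on leaving out single libraries, for FOSB mutant replicates 2 or 3 and sibling replicates 2 or 4, and for MYC any of the mutant replicates and sibling replicates 1 or 2, and both without mutant replicate 4 and sibling replicate 2 together. MYC also lost it with RLE or upper-quartile scaling. The other MYC identifier (ENSDARG00000007241) averaged 45.5 ± 5.24 CPM in mutants and 42.6 ± 14.0 CPM in siblings and did not pass (0.098 ± 0.232, adjusted p = 0.826).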
